A study of Mus musculus with 8 samples.

Results

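Interferon-stimulated genes are the genes that cells switch on after interferon binds its receptors, and 47 of them were set side by side in the livers of 2 groups of mice that lack TAK1 in the liver parenchyma. The members were a given list of symbols, not chosen by their level, but the list was made with earlier results of these data known. The members comprised 34 targets typical of type I interferon, 10 guanylate-binding proteins (GBPs) and immunity-related GTPases (IRGs), and the regulators Irf1, Irf8 and Socs1. Of the 47, 44 had at least 1 probe set annotated with that symbol alone, out of 19552 genes measured, and these rest on 413 probe sets. Isg15, Gbp7 and Tgtp1 had none, so their levels were not analysed here. The probe sets of Ifi27 and Trim30a carry the older names Ifi27l1 and Trim30.

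The array study compared whole liver of male mice aged 6 weeks. In 4 Tak1/Caspase8 LPC double knockout mice (below Tak1/Casp8) TAK1, a kinase of inflammatory signalling, and the apoptosis protease caspase 8 were both deleted in LPC, the parenchymal cells of the liver. In 4 Tak1 LPC-KO/Rip3-/- mice (below Tak1/Rip3) TAK1 was deleted in the same cells, and the necroptosis kinase RIP3 was missing from the whole animal. TAK1 loss is therefore common to both groups, no TAK1-intact liver was analysed here, and loss of caspase 8 in LPC and loss of RIP3 in the whole animal cannot be told apart as sources of a difference. The Cre driver, the litters and any processing batch were not stated in the labels used here. The labels show separate samples, and the p-values measure only the spread between these 4 arrays a group, whose number limits the precision.

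As background, type I interferons bind IFNAR1 and IFNAR2 and activate the factor ISGF3, which contains STAT2 and IRF9 and binds interferon-stimulated response elements (ISREs). Interferon gamma acts through gamma-activated sequences (GAS elements). Both routes can induce the GTPases, whereas most antiviral effectors answer mainly to ISGF3. Hepatocytes and the immune cells of the liver can all respond to interferon, and the same genes also answer to viral RNA and DNA through cytosolic sensors.

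The promoters of the members carry these elements at different rates. A RefSeq promoter table (GRCm38.p6) held windows for 36 of the 47 members, and the 250 bases before each start were searched on both strands. The ISRE core was spelled GAAANNGAAA, or TTTCNNTTTC on the other strand, and the GAS core TTCNNNGAA, which reads the same on both strands. Runs of more than 2 GAAA units were counted at each overlapping match. The ISRE core was found in 18 of the 36 members (50%), against 3.46% of the 27025 genes with a window. It was present in 8 of 8 GTPases with a window, 9 of 25 type I targets (36%) and 1 of the other 3 regulators. These counts include Isg15, Gbp7 and Tgtp1, whose levels were not measured, while the measured GTPases Gbp6 and Iigp1 had no window. Of the 33 measured members with a window, 15 had an ISRE core. The GAS core was found in 5 of the 8 GTPases, 5 of the 25 type I targets and 2 of the 3 regulators, against 8.13% of all genes. A match is only these letters, not a bound site.

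Among the members whose level differed between the groups, Ifit1 and Rsad2 have an ISRE core in their window. They are printed 5′ to 3′ on the strand of the gene, with ISRE and GAS cores in capitals. The Ifit1 stretch is chr19:34640755-34640843 on the plus strand, with cores that start 104 and 85 bases before the gene. The Rsad2 stretch is chr12:26456533-26456602 on the minus strand, with a core 120 bases before the start.
Ifit1: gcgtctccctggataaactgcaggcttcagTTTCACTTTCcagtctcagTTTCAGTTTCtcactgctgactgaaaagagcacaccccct
Rsad2: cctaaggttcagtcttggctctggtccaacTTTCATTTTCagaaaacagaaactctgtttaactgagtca

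For contrast, 4 stretches of members that did not pass the test are given, chosen after their values were seen. The neighbouring IRG genes Igtp (chr11:58199481-58199555) and Irgm2 (chr11:58214872-58214952), both on the plus strand, hold a GAS core that starts 11 bases before an ISRE core. Over the 75 bases compared, 73 are the same in both. Gbp2 (chr3:142620574-142620643, plus strand) holds an ISRE core alone, and Irf1 (chr11:53769894-53769962, plus strand) a GAS core alone.
Igtp: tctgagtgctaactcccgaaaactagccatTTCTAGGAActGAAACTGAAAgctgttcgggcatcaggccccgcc
Irgm2: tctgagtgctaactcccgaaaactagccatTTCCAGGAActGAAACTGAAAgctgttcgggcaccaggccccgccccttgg
Gbp2: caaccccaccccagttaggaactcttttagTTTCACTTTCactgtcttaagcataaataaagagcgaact
Irf1: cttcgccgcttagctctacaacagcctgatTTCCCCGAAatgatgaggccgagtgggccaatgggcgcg

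Oasl1 and Oasl2, described below, had no match of either core in their windows, and Usp18 had no window in the table.

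Values are log2 intensities, and a gene's value is the median over its probe sets. Differences are Tak1/Casp8 minus Tak1/Rip3, and a gene was called at an adjusted p under 0.05 in limma over all 19552 genes. Array medians lay between 8.11 and 8.22, and any pair of arrays correlated at 0.975 to 0.993 over genes. The targeted genes followed the labels. Casp8 lay at 9.81 to 10.07 in Tak1/Casp8 livers and 11.09 to 11.40 in Tak1/Rip3 livers. Ripk3 lay at 7.78 to 7.99 in Tak1/Casp8 livers and 6.36 to 7.18 in Tak1/Rip3 livers. Map3k7, which encodes TAK1, had a difference of -0.08 (adjusted p = 0.695). As both groups share the TAK1 deletion, this comparison cannot show it. A hepatocyte list of 6 genes had summed levels of 15.98 to 16.08 in Tak1/Casp8 livers and 15.96 to 16.08 in Tak1/Rip3 livers (log2 of summed linear intensity). In whole tissue, fewer cells of a type and less RNA per cell cannot be told apart.

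Of the 44 measured members, 5 were lower in Tak1/Casp8 livers, against 4.05% of all genes called lower, and 0 were higher, against 2.64% called higher. Either way, 6.69% of all genes were called. The 5 were Rsad2, Oasl1, Oasl2, Usp18 and Ifit1, at 2.24-fold to 1.44-fold. At an adjusted p under 0.10, 6 were lower and 0 higher, against 6.37% and 4.53% of all genes. At an unadjusted p under 0.05, 13 were lower and 2 higher, against 11.8% and 9.31% of all genes. In 6 members all Tak1/Casp8 arrays lay below all Tak1/Rip3 arrays (8.3% of all genes), and in 1 member above (6.33%). The difference was negative in 32 of the 44 members, against 47.4% of all genes, and its median was -0.14, against 0.01 over all genes. All 5 called members were among the 33 measured type I targets, whose median difference was -0.16. Of 8 GTPases 0 were called, and their median was -0.02. As 4.05% of all genes were called lower, 0 of 8 is near the share of all genes. A difference between the 2 classes was not tested.

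**Figure D1:**
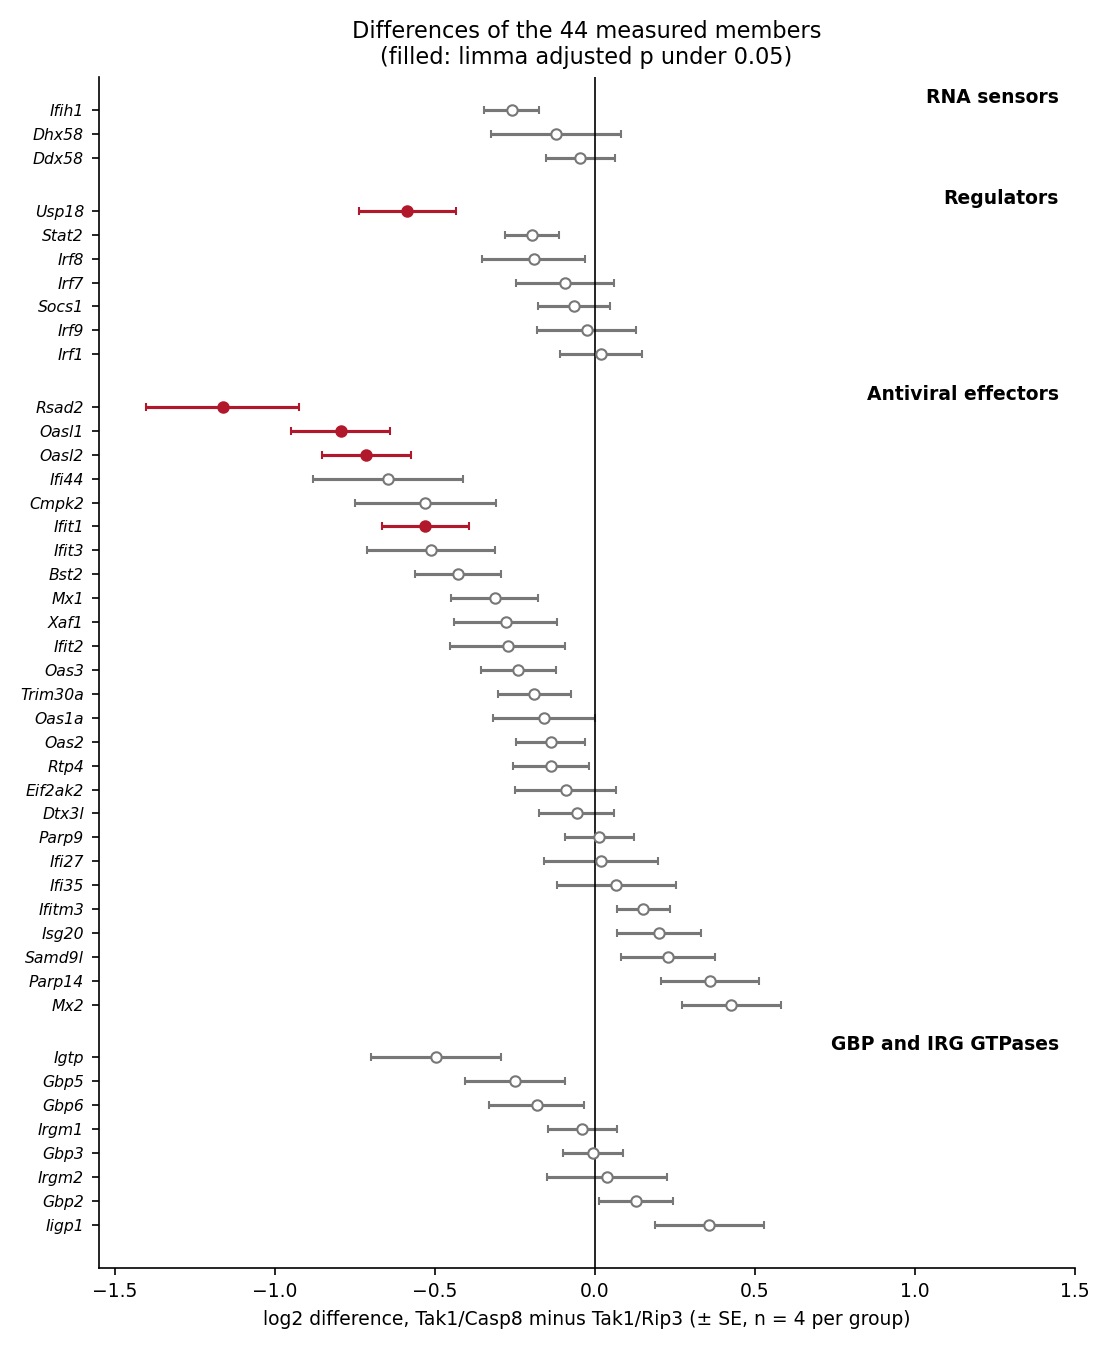
Log2 difference of each of the 44 measured members, Tak1/Casp8 minus Tak1/Rip3, with its standard error (n = 4 arrays a group), grouped by role. The 5 members called at an adjusted p under 0.05, Rsad2, Oasl1, Oasl2, Usp18 and Ifit1, lie at -1.16 to -0.53, and the others between -0.65 and 0.43.

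The 3 sensors of cytosolic RNA, which start interferon production and are themselves induced by it, gave 0 calls. Ifih1, which encodes the long RNA sensor MDA5, read 9.63, 9.73, 9.63 and 9.62 in Tak1/Casp8 livers and 9.90, 10.02, 9.84 and 9.89 in Tak1/Rip3 livers. Without overlap between the groups, the difference of -0.26 ± 0.09 (SE, n = 4 per group) missed the threshold (adjusted p = 0.105). Ifih1 was called in 0 of 14 alternative fits (adjusted p = 0.0648 to 0.915). Its difference was -0.14 with the mean over probe sets and -0.03 with the brightest one. Ddx58, which encodes RIG-I, read 10.32, 10.36, 10.38 and 10.40 in Tak1/Casp8 livers and 10.51, 10.16, 10.61 and 10.37 in Tak1/Rip3 livers. These overlapped, and the difference was -0.04 (0.027 with the arrays shifted to one median). Dhx58, which encodes their relative LGP2, read 8.32, 8.45, 8.70 and 8.55 in Tak1/Casp8 livers and 8.71, 7.95, 8.84 and 9.01 in Tak1/Rip3 livers. Here 3 Tak1/Rip3 arrays lay above all Tak1/Casp8 arrays and the second lay below them. All 13 Dhx58 probe sets had a negative difference, and the gene's was -0.12 (adjusted p = 0.792).

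Of the 7 regulators 1 was called. Usp18 encodes the protease that removes ISG15 from proteins and blocks signalling at IFNAR2, and is itself induced by type I interferon. Its values were 8.79, 9.01, 9.13 and 9.44 in Tak1/Casp8 livers and 9.88, 9.40, 9.70 and 9.73 in Tak1/Rip3 livers. The groups overlapped only through the fourth Tak1/Casp8 and the second Tak1/Rip3 array. Usp18 was 1.5-fold lower in Tak1/Casp8 livers (-0.59 ± 0.15 SE, n = 4 per group, adjusted p = 0.0455), and all 10 of its probe sets had negative differences. The call did not hold without Tak1/Casp8 replicate 1, 2 or 3 or replicate 1, 3 or 4 of Tak1/Rip3 (adjusted p = 0.0878 to 0.131) and with the arrays shifted to one median (0.0650) or quantile normalised (0.0523).

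The ISGF3 subunits Stat2 and Irf9 were not called. Stat2 read 10.04, 10.11, 10.06 and 10.03 in Tak1/Casp8 livers and 10.23, 10.17, 10.27 and 10.36 in Tak1/Rip3 livers. Although no array of one group lay within the other, the difference of -0.20 ± 0.08 (SE) had an adjusted p of 0.213. Stat2 was called in 0 of 14 alternative fits (adjusted p = 0.145 to 0.710). Its difference was -0.07 with the mean over probe sets and -0.18 with the brightest one. Irf8, a factor of macrophages and dendritic cells, read 9.60, 9.29, 9.81 and 9.20 in Tak1/Casp8 livers and 9.87, 9.33, 9.67 and 9.79 in Tak1/Rip3 livers, which overlapped (-0.19, adjusted p = 0.554). The remaining 4 regulators differed by little: Irf1 by 0.02, Irf7, the amplifier of interferon alpha production, by -0.09, Irf9 by -0.03 and the signalling inhibitor Socs1 by -0.07.

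The antiviral effectors held the other 4 calls, among 26 measured of 27. Rsad2 encodes viperin, a radical SAM enzyme that makes a chain-terminating nucleotide. Rsad2 read 7.84, 8.11, 7.96 and 8.32 in Tak1/Casp8 livers and 9.29, 8.40, 9.59 and 9.58 in Tak1/Rip3 livers. Every Tak1/Casp8 array lay below every Tak1/Rip3 array, with the second Tak1/Rip3 array next to the Tak1/Casp8 values. The means were 8.06 ± 0.21 in Tak1/Casp8 livers and 9.22 ± 0.56 in Tak1/Rip3 livers (SD, n = 4 each), so Rsad2 was 2.24-fold lower (-1.16 ± 0.24 SE, adjusted p = 0.0180). The call did not hold without replicate 1, 3 or 4 of Tak1/Rip3 (0.0576, 0.0508 and 0.0575, adjusted) and with the brightest probe set alone (-0.88, adjusted p = 0.140). All 9 probe sets had negative differences.

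Oasl1 and Oasl2 are neighbours on chromosome 5 and encode relatives of the 2′-5′ oligoadenylate synthetases, of which mouse OASL1 is known to restrain Irf7 translation. Oasl1 read 8.40, 8.94, 8.55 and 9.03 in Tak1/Casp8 livers and 9.78, 9.36, 9.46 and 9.49 in Tak1/Rip3 livers. Its groups did not overlap, and it was 1.73-fold lower in Tak1/Casp8 livers (-0.79 ± 0.15 SE, n = 4 per group, adjusted p = 0.0138). Oasl2 read 8.39, 8.52, 8.65 and 8.65 in Tak1/Casp8 livers and 9.19, 8.91, 9.49 and 9.48 in Tak1/Rip3 livers. Its groups did not overlap either, and it was 1.64-fold lower in Tak1/Casp8 livers (-0.71 ± 0.14 SE, n = 4 per group, adjusted p = 0.0141). Both genes were called in each of the 14 alternative fits, at an adjusted p of 0.00762 to 0.0460 for Oasl1 and 0.00558 to 0.0475 for Oasl2. The oligoadenylate synthetases that make the activator of RNase L were not called. Of these Oas1a had a difference of -0.16, and Oas2 and Oas3, which are neighbours, of -0.14 and -0.24. OAS genes have close copies, and 8 further probe sets shared by Oas1a and Oas1g were left out.

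Ifit1, of the family that binds viral RNA by its cap or end, read 7.75, 7.99, 7.97 and 8.08 in Tak1/Casp8 livers and 8.41, 8.14, 8.68 and 8.68 in Tak1/Rip3 livers. The groups did not overlap, and Ifit1 was 1.44-fold lower in Tak1/Casp8 livers (-0.53 ± 0.14 SE, n = 4 per group, adjusted p = 0.0451). The call did not hold without Tak1/Casp8 replicate 1, 2 or 3 or replicate 1, 3 or 4 of Tak1/Rip3 (adjusted p = 0.0909 to 0.127) and under 4 settings that kept all arrays. Its relatives Ifit2 and Ifit3, neighbours on chromosome 19, had differences of -0.27 and -0.51 (adjusted p = 0.432 and 0.170). IFIT genes also have close copies, so their values are uncertain. Cmpk2, a nucleotide kinase that lies beside Rsad2 on chromosome 12, had a difference of -0.53 (adjusted p = 0.199).

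**Figure D2:**
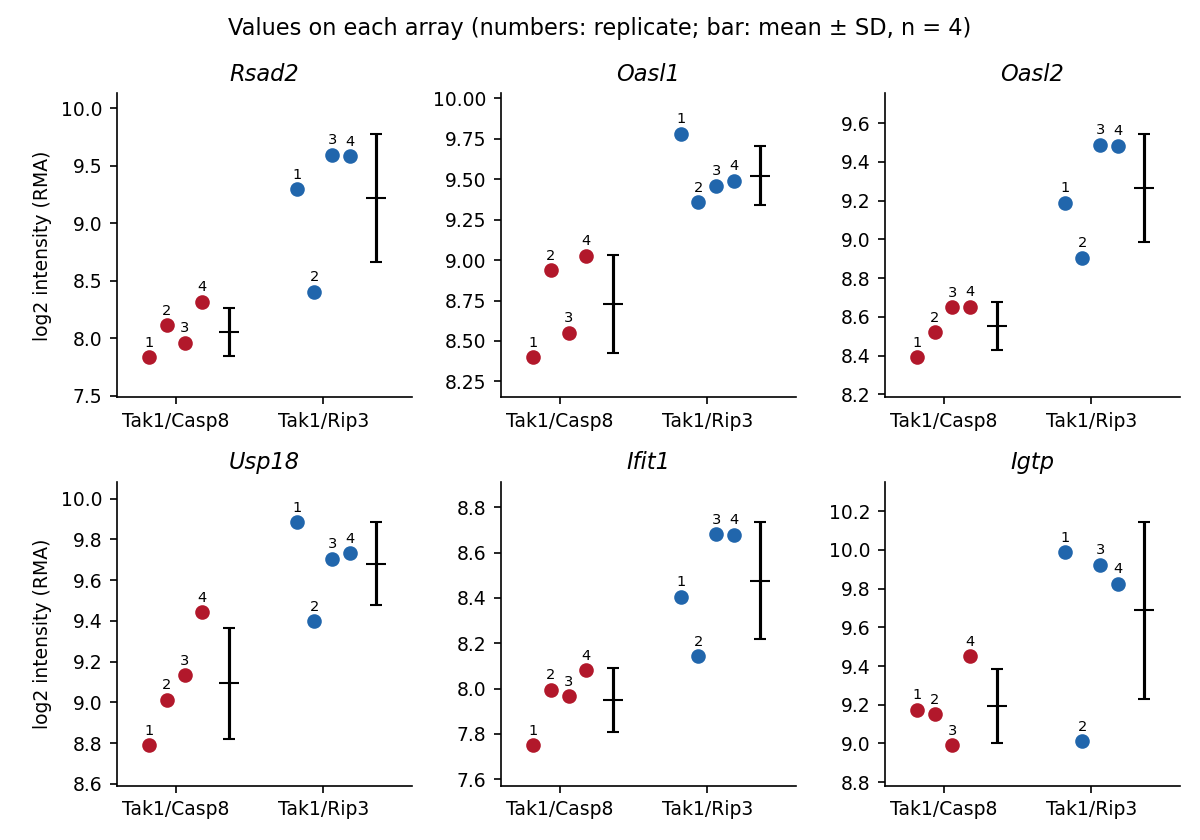
Log2 intensity of the 5 called members and Igtp on each array (points numbered by replicate), with bars for the mean ± SD of each group, the 4 Tak1/Casp8 arrays left of the 4 Tak1/Rip3 arrays. In Rsad2, Oasl1, Oasl2 and Ifit1 every Tak1/Casp8 array lies below every Tak1/Rip3 array, and Usp18 overlaps by 1 array on each side.

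Ifitm3, a membrane protein that blocks viral fusion, ran the other way without passing. Ifitm3 read 13.20, 13.20, 13.15 and 13.20 in Tak1/Casp8 livers and 13.04, 13.00, 13.13 and 12.98 in Tak1/Rip3 livers. All Tak1/Casp8 arrays lay above all Tak1/Rip3 arrays, with a difference of 0.15 ± 0.08 (SE, adjusted p = 0.332). Of the other effectors, the largest negative differences were those of Ifi44 (-0.65, adjusted p = 0.142) and of tetherin, Bst2 (-0.43, adjusted p = 0.0921). The largest positive ones were those of the GTPase Mx2 (0.43, adjusted p = 0.139) and the ADP-ribosyltransferase Parp14 (0.36, adjusted p = 0.213). Dtx3l and Parp9, the neighbours of Parp14 and partners in a ubiquitin ligase, had differences of -0.06 and 0.01. The remaining effectors lay between -0.31 for Mx1 and 0.23 for Samd9l, with Xaf1 at -0.28, Trim30a at -0.19, Rtp4 at -0.14, the RNA-activated kinase gene Eif2ak2 at -0.09, Ifi27 at 0.02, Ifi35 at 0.07 and Isg20 at 0.20. Mx1 and the GTPase Gbp5 lay under the lower quartile of each of the 8 arrays, and Mx2 under that of 3 of the 4 Tak1/Rip3 arrays, so their differences are uncertain. The call of Bst2 was made without Tak1/Casp8 replicate 4 (adjusted p = 0.0159) and that of Mx2, as higher, without Tak1/Rip3 replicate 4 (adjusted p = 0.0417).

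The GBP and IRG GTPases coat and break the vacuoles of intracellular microbes. Of the 8 measured 0 were called, against 4.05% of all genes called lower and 2.64% higher. Igtp, which encodes IRGM3, read 9.17, 9.15, 8.99 and 9.45 in Tak1/Casp8 livers and 9.99, 9.01, 9.92 and 9.83 in Tak1/Rip3 livers. Here 3 Tak1/Rip3 arrays lay above all Tak1/Casp8 arrays, and the second lay among them. The difference of -0.50 ± 0.20 (SE, n = 4 per group) had an adjusted p of 0.195. It passed with the mean over probe sets (-0.62, adjusted p = 0.0336), with the brightest one (-0.71, adjusted p = 0.0409) and without Tak1/Rip3 replicate 2 (-0.72, adjusted p = 0.0110). Its neighbour Irgm2, whose printed promoter stretch is nearly the same, had a difference of 0.04 from 1 probe set, and of -0.15 without Tak1/Rip3 replicate 2.

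Iigp1, an effector IRG, had a positive difference. Iigp1 read 10.75, 10.92, 10.91 and 11.15 in Tak1/Casp8 livers and 10.31, 10.29, 11.06 and 10.64 in Tak1/Rip3 livers. The third Tak1/Rip3 array lay among the Tak1/Casp8 values, and the difference was 0.36 ± 0.17 (SE, adjusted p = 0.262). With the brightest of its 5 probe sets the difference was 0.007 (adjusted p = 0.984). Irgm1, a regulatory IRG, read 10.69, 10.73, 10.81 and 10.84 in Tak1/Casp8 livers and 10.82, 10.55, 10.97 and 10.89 in Tak1/Rip3 livers. Its groups overlapped (-0.04, and 0.033 with the arrays shifted to one median). All 3 Irgm1 probe sets had negative differences, of -0.38 to -0.09, and the mean over them gave -0.19 (adjusted p = 0.350). Gbp5, a GBP that promotes inflammasome activity, read 5.56, 5.53, 5.92 and 6.10 in Tak1/Casp8 livers and 6.12, 5.78, 6.28 and 5.91 in Tak1/Rip3 livers, again with overlap (-0.25, adjusted p = 0.411). Gbp2, Gbp3 and the probe sets named Gbp6 had differences of 0.13, 0.00 and -0.18.

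The identity of Gbp6 is uncertain. The platform annotation is old, and the numbers of its 10 Gbp6 probe sets run between those of Gbp2b and Gbp3, both on chromosome 3 in the RefSeq table, which places today's Gbp6 on chromosome 5. Mpa2l, an older symbol of that gene, had 2 probe sets with identical values, examined after the data were seen. Mpa2l read 6.57, 6.86, 6.35 and 7.10 in Tak1/Casp8 livers and 7.39, 7.34, 7.70 and 8.17 in Tak1/Rip3 livers. No array overlapped the other group, and Mpa2l was 1.91-fold lower in Tak1/Casp8 livers (-0.93 ± 0.21 SE, n = 4 per group, adjusted p = 0.0251), 2 of whose arrays read it under the lower quartile. The call did not hold without Tak1/Casp8 replicate 1, 2 or 3 or Tak1/Rip3 replicate 3 or 4 (adjusted p = 0.0510 to 0.0645). With Mpa2l in place of Gbp6, 6 members and 1 of 8 GTPases would be lower.

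The second Tak1/Rip3 array stood apart from its group in these genes. It was the lowest of the 4 Tak1/Rip3 arrays in 35 of the 44 members, including 8 of 8 GTPases and 25 of 33 type I targets, against 27.7% of all genes. Centred on each member's mean, the median over members was -0.18, -0.07, 0.02 and 0.01 on the Tak1/Casp8 arrays and 0.12, -0.24, 0.19 and 0.16 on the Tak1/Rip3 arrays. The lowest score of all was thus in the group with the higher mean, and the groups overlapped. Within the Tak1/Casp8 group replicate 1 was the lowest in 27 of the 44 members, against 28.2% of all genes.

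Without Tak1/Rip3 replicate 2 the members' differences moved further down. Then 7 members were lower and 0 higher (4.17% and 2.41% of all genes), as Igtp and Cmpk2 (-0.73, adjusted p = 0.0394) joined the other 5. The median difference of the members was -0.22, that of the type I targets -0.23 and that of the GTPases -0.14. Without Tak1/Rip3 replicate 1, 3 or 4, in contrast, 2 members remained called, Oasl1 and Oasl2, and without Tak1/Rip3 replicate 4 Mx2 was higher. Of the Tak1/Casp8 replicates, leaving out 1, 2 or 3 left 3 members lower.

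**Figure D3:**
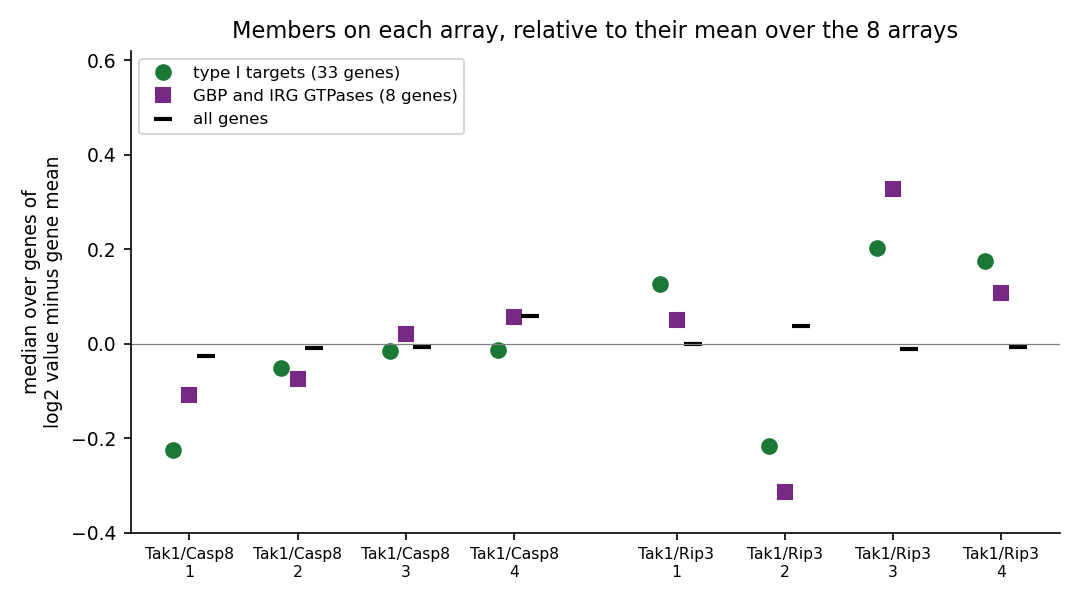
Median over genes of the log2 value minus each gene's mean over the 8 arrays, per array, for 33 type I targets, 8 GTPases and all genes, with Tak1/Casp8 arrays left of Tak1/Rip3 arrays. Tak1/Rip3 replicate 2 reads -0.22 for the type I targets and -0.31 for the GTPases, beside 0.05 to 0.33 for both on the other Tak1/Rip3 arrays.

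Single probe sets, each about the size of an exon, show how far a difference runs along a transcript. Of the members' 413 probe sets, 275 had a negative and 138 a positive difference, with a median of -0.11, and probe sets of 1 gene are not independent. Tested over all 206316 probe sets, 6 of these 413 were lower, a share close to the 1.11% lower among all probe sets. In the other direction 0 were higher, against 0.532% of all. The 6 were 3 of 9 in Oasl2, 1 of 8 in Oasl1, 1 of 9 in Rsad2 and 1 of 10 in Usp18. The differences were negative in 8 of 9 probe sets of Oasl2, in 7 of 8 of Oasl1, where they ranged from -1.56 to 0.05, and in 4 of 4 of Ifit1. The count of 6 fell to 0 without Tak1/Casp8 replicate 1 or 3 or Tak1/Rip3 replicate 1, 3 or 4, and it was 1 without Tak1/Casp8 replicate 2, 10 without Tak1/Casp8 replicate 4 and 13 without Tak1/Rip3 replicate 2.

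**Figure D4:**
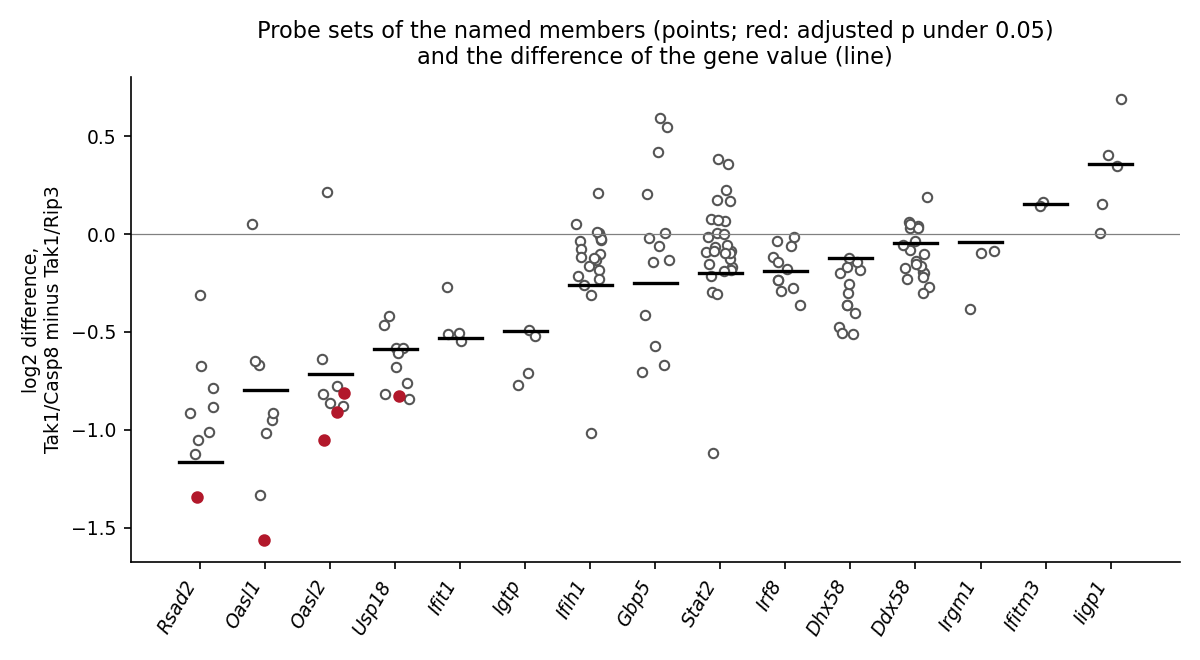
Log2 difference, Tak1/Casp8 minus Tak1/Rip3, of each probe set (points) of 15 members, with called probe sets in red and the difference of the gene value as a line. All 9 probe sets of Rsad2, all 10 of Usp18 and all 13 of Dhx58 lie below 0, and 6 probe sets in 4 genes were called.

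The measured genes upstream of the members were 15 interferon ligands, 6 receptors, 10 of JAK-STAT signalling and 19 of sensing and induction. Of these Ifnar2 and Socs3 were called, both higher in Tak1/Casp8 livers. Over all genes 4.05% were called lower and 2.64% higher, and at an unadjusted p under 0.05 the shares were 11.8% and 9.31%. Of 15 measured interferon ligands 0 were called at 5% after adjustment, 0 of them lower and 1 higher at an unadjusted p under 0.05, and 12 lay under the lower quartile on all 8 arrays. Ifnb1 and Ifng, the genes of interferon beta and gamma, were among the 12 and had differences of 0.10 and -0.17, and Ifna4 one of 0.18. The lambda interferon Ifnl2 read 10.05, 9.86, 10.02 and 10.04 in Tak1/Casp8 livers and 9.18, 9.91, 9.48 and 9.24 in Tak1/Rip3 livers (0.54, adjusted p = 0.0663). The second Tak1/Rip3 array was the highest of its group here, and without it the gene was higher (0.69, adjusted p = 0.00852). The 3 probe sets of Ifnl2 had differences of 0.15 to 0.54. Ifnl2 has a close copy in Ifnl3, which had a difference of -0.004 (adjusted p = 0.992), so the Ifnl2 value is uncertain.

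Of the 6 receptor genes 1 was called. Ifnar2, a chain of the type I receptor, read 11.75, 11.74, 11.76 and 11.64 in Tak1/Casp8 livers and 11.46, 11.29, 11.38 and 11.34 in Tak1/Rip3 livers. The groups did not overlap, and Ifnar2 was 1.28-fold higher in Tak1/Casp8 livers (0.35 ± 0.08 SE, n = 4 per group, adjusted p = 0.0333). The call did not hold without any 1 array except Tak1/Casp8 replicate 4 (adjusted p = 0.0574 to 0.0960) and with the brightest probe set (0.102). Ifnar1, the other chain, had a difference of 0.02, with 9.46 on Tak1/Casp8 replicate 4 and 9.66 on Tak1/Rip3 replicate 2 against 10.65 to 10.85 on the other arrays. Ifnlr1 and Ifngr1 had differences of -0.21 and -0.12.

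Among 10 measured genes of JAK-STAT signalling and its inhibitors 1 was higher and 0 lower. Socs3, a feedback inhibitor known best from interleukin 6 signalling, read 9.27, 8.82, 9.26 and 9.30 in Tak1/Casp8 livers and 8.70, 8.50, 8.58 and 8.40 in Tak1/Rip3 livers. The groups did not overlap, and Socs3 was 1.54-fold higher in Tak1/Casp8 livers (0.62 ± 0.13 SE, n = 4 per group, adjusted p = 0.0167). The call did not hold without Tak1/Rip3 replicate 4 (adjusted p = 0.0568) and with the brightest of its 3 probe sets (0.15, adjusted p = 0.540). Stat3 and Jak2 had differences of 0.37 and 0.27 (adjusted p = 0.0570 and 0.351). Of 19 genes of nucleic acid sensing and interferon induction 0 were called by limma, with 2 lower and 1 higher at an unadjusted p under 0.05. They included Irf5 (-0.30, adjusted p = 0.0747), the adaptor Myd88 (0.34, adjusted p = 0.0774), the DNA sensor Cgas (-0.65, adjusted p = 0.0898, dim on all arrays) and Zbp1 (-0.06), a nucleic acid sensor that can engage RIP3.

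A further 47 measured interferon-induced genes, listed beside the members, included 3 lower (6.38%, against 4.05% of all genes) and 0 higher genes. The difference was negative in 36 of the 47, against 47.4% of all genes, and its median was -0.11, against 0.01 over all genes. Tor3a, an interferon-responsive ATPase, read 8.02, 8.14, 8.21 and 8.22 in Tak1/Casp8 livers and 9.02, 8.73, 8.81 and 8.85 in Tak1/Rip3 livers. Again without overlap, Tor3a was 1.63-fold lower in Tak1/Casp8 livers (-0.70 ± 0.10 SE, n = 4 per group, adjusted p = 0.00316), although its brightest probe set had a difference of -0.01. Lgals3bp, a secreted galectin-3 ligand (-0.42 ± 0.09 SE), and the nuclear body gene Sp100 (-0.59 ± 0.13 SE) were lower at an adjusted p of 0.0221 and 0.0282. Each of these 2 calls was lost without any 1 of 6 arrays (adjusted p up to 0.0769 and 0.0879): Lgals3bp kept its call without Tak1/Casp8 replicate 4 or Tak1/Rip3 replicate 2, and Sp100 without Tak1/Casp8 replicate 3 or Tak1/Rip3 replicate 2. With the brightest probe set Sp100 had a difference of -0.11. Without Tak1/Rip3 replicate 2, 6 of the 47 were lower.

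Of 14 genes typical of interferon gamma outside the GTPases 1 was lower and 2 were higher, against 4.05% and 2.64% of all genes. At an unadjusted p under 0.05, 6 of the 14 were lower and 3 higher, against 11.8% and 9.31% of all genes. The median difference of the 14 was -0.22, and -0.31 without Tak1/Rip3 replicate 2. Cd274, which encodes the checkpoint ligand PD-L1, read 7.14, 7.11, 7.33 and 7.17 in Tak1/Casp8 livers and 7.76, 7.88, 7.87 and 7.79 in Tak1/Rip3 livers. It was 1.56-fold lower in Tak1/Casp8 livers without overlap (-0.64 ± 0.09 SE, n = 4 per group, adjusted p = 0.00318), and it had a difference of -0.12 with its brightest probe set. The complement inhibitor Serping1 (0.40 ± 0.10 SE, adjusted p = 0.0361) and the nitric oxide synthase Nos2 (0.49 ± 0.13 SE, adjusted p = 0.0470) were higher, and each lost its call without any 1 of 6 arrays (adjusted p = 0.0676 to 0.1001 and 0.0755 to 0.135). Serping1 kept it without Tak1/Casp8 replicate 4 or Tak1/Rip3 replicate 3, and Nos2, dim on 3 of the 4 Tak1/Rip3 arrays, without Tak1/Casp8 replicate 2 or Tak1/Rip3 replicate 2. Among 8 measured GBP and IRG genes that are no members, 1 was higher and 0 lower. Gm4951, an IRG family gene with 1 probe set, read 12.26, 12.23, 12.13 and 12.35 in Tak1/Casp8 livers and 11.01, 11.28, 11.59 and 11.81 in Tak1/Rip3 livers (0.82 ± 0.16 SE, n = 4 per group, adjusted p = 0.0134). Gbp2b had a difference of 0.91 (adjusted p = 0.0561) and Gbp4 of -0.37 (adjusted p = 0.111).

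**Figure D5:**
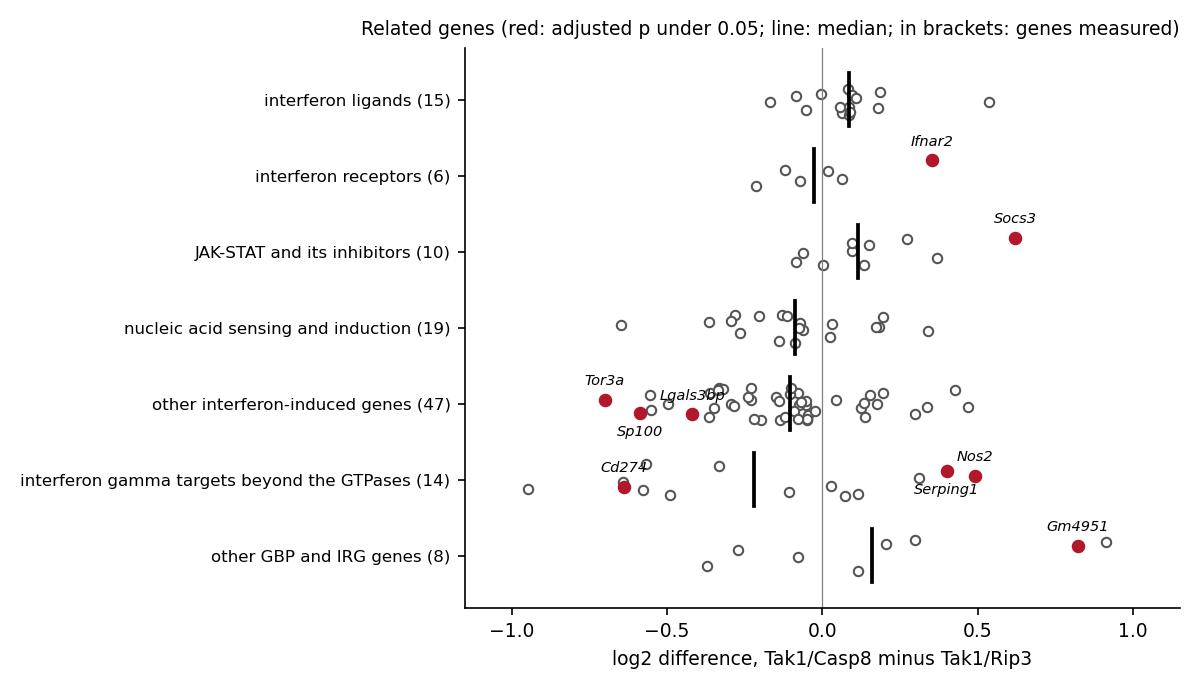
Log2 difference, Tak1/Casp8 minus Tak1/Rip3, of each measured gene in 7 lists related to the members, with called genes in red and the list median as a line. Calls number 4 lower (Tor3a, Lgals3bp, Sp100, Cd274) and 5 higher (Ifnar2, Socs3, Serping1, Nos2, Gm4951) among 119 genes, against 4.05% and 2.64% of all genes.

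Markers of cells that make or answer to interferon differed in both directions. Of 3 measured markers of plasmacytoid dendritic cells, the main makers of type I interferon, Siglech was lower in Tak1/Casp8 livers (-0.68 ± 0.08 SE, n = 4 per group, adjusted p = 0.00171), at 7.12 to 7.28 in Tak1/Casp8 livers and 7.82 to 7.94 in Tak1/Rip3 livers. Ccr9 and Cox6a2 had differences of -0.38 and 0.06, and the summed level of the 3 was 8.54 to 8.71 in Tak1/Casp8 livers and 8.92 to 9.08 in Tak1/Rip3 livers. Both measured B cell markers were lower, Cd79a by -1.38 and Ms4a1 by -1.11 (adjusted p = 0.000709 and 0.00441), and Ms4a1 was dim on all arrays. The sum of the B cell markers was 5.90 to 6.17 in Tak1/Casp8 livers and 7.11 to 7.5 in Tak1/Rip3 livers. With the brightest probe set Cd79a and Ms4a1 had differences of -0.44 and -0.16 and were not called. The sum of 8 T and NK cell markers, 0 of which were called and 3 of which were dim on all arrays, was 9.60 to 9.70 in Tak1/Casp8 livers and 9.73 to 9.84 in Tak1/Rip3 livers. Markers of macrophages and granulocytes leaned the other way. Differences were positive in 5 of 6 Kupffer cell (median 0.18), 3 of 4 monocyte (0.42) and 4 of 5 neutrophil markers (0.26), against 10284 of all 19552 genes. The summed levels overlapped between the groups. Monocyte sums were 9.15 to 10.14 in Tak1/Casp8 livers and 9.21 to 9.71 in Tak1/Rip3 livers. Neutrophil sums were 9.17 to 9.52 in Tak1/Casp8 livers and 8.94 to 9.18 in Tak1/Rip3 livers, with Ly6g and Retnlg dim on all arrays. The sum of the Kupffer cell markers, 0 of them called, was 13.11 to 13.51 in Tak1/Casp8 livers and 12.80 to 13.57 in Tak1/Rip3 livers. Of the other lists, stellate cell markers had 2 lower and 1 higher of 5, neutrophil and cholangiocyte markers 1 higher of 5 each, and monocyte, conventional dendritic, endothelial and erythroid markers 0 calls. Over all genes 4.05% were called lower and 2.64% higher. The neutrophil call, Csf3r, held in 0 of the 8 fits that left out 1 array (adjusted p = 0.0643 to 0.139) and not with the brightest probe set (0.807), and the stellate calls of Colec11 and Reln did not hold in 7 and 5 of them (adjusted p up to 0.115 and 0.0944). The summed level of the stellate cell markers was 13.31 to 13.63 in Tak1/Casp8 livers and 13.72 to 13.79 in Tak1/Rip3 livers. That of the cholangiocyte markers was 12.95 to 13.71 in Tak1/Casp8 livers and 12.32 to 12.90 in Tak1/Rip3 livers. The cholangiocyte call was Spp1. Most of that list leaned the other way, with negative differences in 3 of 5 markers, against 47.4% of all genes. Its median was -0.30, in a range of -1.05 to 0.97. The part of these cells in the members' differences was not tested.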

How the data were processed

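Whole-liver RNA from 4 Tak1/Casp8 and 4 Tak1/Rip3 mice was hybridised to 1 array each. The deposited values are log2 intensities per probe set, made by the authors with RMA, as the submitters' processing notes say, a method that normalises the arrays and narrows small differences near the background. Of 223771 probe sets, 206316 had 1 symbol in the platform annotation, 3734 several and 13721 none. From these the median over probe sets gave 19552 genes, of which 19464 matched the RefSeq table, after 2587 outdated symbols had been updated. Genes were tested with limma 3.58.1 (lmFit and eBayes, two-sided, Benjamini-Hochberg over all genes) in R 4.3.3. The fit was tested on simulated data. Figures and promoter searches used Python 3.11.15 and matplotlib 3.10.9.

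Per-array values are given for members at an adjusted p under 0.05, the 3 with the smallest adjusted p in each role and the one with the highest mean. In each related list the 3 genes with the smallest adjusted p are named, besides Ifnb1, Ifng, Ifnar1 and Zbp1. Members and lists were chosen with earlier results of these data known. Alternatives were quantile normalisation, a shift of arrays to one median, the mean or the brightest probe set, omission of genes under the 30th percentile of level, eBayes with trend and robust settings, an adjusted p of 0.10, omission of each array and, added after seeing the data, Mpa2l as Gbp6.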

Additional observations from a re-analysis of the deposited data

Results flagged for a closer look

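In each group of 4 arrays, the highest and lowest array of each measured member were compared with the rest by Dixon's ratio at its usual critical value for 4 values. Of 88 groups 5 exceeded it, and chance flags about 1 in 20. Tak1/Rip3 replicate 2 was the low array in 3 of them: Irf7 read 9.61 there against 10.09 to 10.19 on the other Tak1/Rip3 arrays (ratio 0.831), Dtx3l 10.03 against 10.45 to 10.47 (ratio 0.949) and Igtp 9.01 against 9.83 to 9.99 (ratio 0.834). Ifih1 read 9.73 on Tak1/Casp8 replicate 2 against 9.62 to 9.63 on the other Tak1/Casp8 arrays (ratio 0.853). Ifitm3 read 13.15 on Tak1/Casp8 replicate 3 against 13.20 to 13.21 on the other Tak1/Casp8 arrays (ratio 0.898).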

How the results depend on the processing

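The 5 lower members were 3 with quantile normalisation or arrays shifted to one median, 6 at an adjusted p of 0.10 and 2 to 7 with 1 array left out; the 0 higher were 0 to 1 with 1 array left out. The 5 lower type I targets were 3 under quantile normalisation, the shift or the brightest probe set, and 2 to 6 with 1 array left out, where 0 to 1 were higher. Of the GTPases 1 was lower with the mean over probe sets, the brightest probe set or Mpa2l as Gbp6, and 0 to 1 with 1 array left out. The shift gave 631 lower and 855 higher genes in all, against 792 and 517 as reported, and moved the median of all genes to 0.08. The brightest probe set gave 448 and 310, and leaving out 1 array 438 to 860 lower and 263 to 488 higher. Of the related genes 4 lower and 5 higher as reported were 7 and 9 with dim genes left out, 7 and 8 with trend and robust settings, and 2 to 8 and 1 to 5 with 1 array left out; 11 were higher with the shift and 8 with the mean over probe sets. The 6 lower member probe sets were 0 to 13 with 1 array left out. Among the 15 members given by array, reversed signs, none called, were those of Ddx58 (0.027 with the shift, and -0.13 to 0.021 with 1 array left out, positive without Tak1/Rip3 replicate 3), Irgm1 (0.033, and -0.12 to 0.016, likewise) and Dhx58 (-0.35 to 0.0057, positive without Tak1/Rip3 replicate 4). Of the other members, Irf1 (-0.09), Ifi27 (-0.12), Ifi35 (-0.09) and Irgm2 (-0.15) turned negative without Tak1/Rip3 replicate 2; their signs in the other settings are not given. The median difference of the members stayed negative, between -0.22 and -0.06, and that of the GTPases lay 0.09 to 0.21 above that of the type I targets in the same alternative fits. The cause of these shifts was not tested. No paired analysis was possible because the labels give the groups no shared replicate numbers.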
